A study of Mus musculus with 21 samples.

Results

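The *Zfp* zinc finger genes described here are the 210 genes whose symbol is *Zfp* followed by a number, which are annotated as protein-coding, and whose mean over 15 QuantSeq libraries was at least 5 TPM. They were taken from 397 protein-coding *Zfp* genes and from 55421 genes in all. To them were added the ChIP-seq peaks whose nearest gene is 1 of the 210, which were 73 of 5898 Zbtb1 peaks and 44 of 6077 Cbfa2t3 peaks. The genes were thus selected on their measured level, so their levels are a description. The rule itself uses neither fold changes nor peak scores, although earlier results of these data were known when it was set.

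The cells were *Ebf1*-deficient lymphoid progenitors (LPs), a C57BL6/J mouse line that lacks the B-lineage factor Ebf1 and can still enter the T lineage, grown on OP9 stroma with SCF, IL-7 and Flt3L at 10 ng/ml each. For QuantSeq they carried Cas9-GFP and received a pool of sgRNAs, marked by hNGFR. The pools were directed at 1 of the genes *Lmo2*, *Zbtb1*, *Cbfa2t2* and *Cbfa2t3*, or at luciferase as the control (sgControl), and GFP+hNGFR+ cells were sorted 5 days later. Each of the 5 conditions had 3 libraries, and ChIP-seq had 2 replicates for each factor in LPs without sgRNA and without Notch stimulation. All come from 1 cell line. The study describes the libraries of a condition as independent biological replicates, and p-values measure the spread between them. Lmo2 is a bridging protein of haematopoietic transcription complexes, Zbtb1 a BTB zinc finger factor needed for lymphoid development, and Cbfa2t2 and Cbfa2t3 are corepressors of the ETO family.

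*Zfp* genes code for proteins whose zinc fingers, short loops held by a zinc ion, read DNA or RNA. C2H2 fingers mostly bind DNA, and many of these proteins also have a KRAB box, which recruits Trim28 and the histone methyltransferase Setdb1 to silence chromatin, above all at transposable elements. KRAB genes multiplied in tandem and stand in neighbourhoods of related copies. The CCCH proteins Zfp36, Zfp36l1 and Zfp36l2 are of another kind: they bind AU-rich elements in mRNA, bring in the CCR4-NOT deadenylase and so shorten the life of the mRNA, and they restrain proliferation in developing lymphocytes.

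Values are the authors' TPM, in which the reads of a gene are scaled to the same total in every library. QuantSeq reads each mRNA near its 3′ end, so a level does not grow with transcript length and can be compared between genes. The libraries held 1705416 to 2095447 reads, and the 210 genes together had 0.627% to 0.698% of them. The gene at the middle of the 210 had a median of 33.5 reads per library, and the range of this median was 8 to 545 reads. No library lacked reads of any of the 210 genes, and *Zfp653*, *Zfp607a* and *Zfp947* had fewer than 3 reads in at least 1 library. *Zbtb1* mRNA was higher in the libraries labelled sgZbtb1 (106 ± 9.91 TPM, SD, n = 3) than in sgControl (61.7 ± 5.51), with a limma adjusted p of 0.00102. *Cbfa2t3* mRNA was likewise higher in those labelled sgCbfa2t3 (350 ± 12.9 against 190 ± 18.7 TPM, limma adjusted p 1.67e-07), and *Lmo2* and *Cbfa2t2* did not pass the test in theirs. Reads at the 3′ end do not show the cut, so mRNA levels do not check these labels. The study examined targeted proteins by immunoblotting, which is not part of these files. *Ebf1* mRNA was read at a mean of 273 TPM, which goes against the stated deficiency if the reads lie in the deleted part. The sources used here do not say where that part is. All 8 lymphoid progenitor markers were detected, with *Cd34* at 303 TPM and *Flt3* at 233 TPM, whereas the 10 markers of OP9 stroma summed to 1.96 to 14.2 TPM and *Dcn*, *Col3a1* and *Lum* were at 0.

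Sequence features divided the 210 genes into 99 with a KRAB box, 104 with C2H2 fingers and no KRAB box, the 3 CCCH genes and 4 in which no finger pattern was found (*Zfp451*, *Zfp330*, *Zfp839* and *Zfp703*). KRAB proteins had a median of 11 C2H2 fingers (range 2 to 30), and C2H2 proteins without KRAB had 7 (range 1 to 37). The median level was 12.2 TPM in the KRAB class and 25.5 TPM in the C2H2 class, and 65.4 TPM in the CCCH class. Thus the KRAB genes, although numerous, were mostly in the lower part of the range of levels. Chromosomes 7 and 17 carried 50 and 30 of the genes, and 96 of the 210 stood in 17 neighbourhoods of at least 3 genes with starts no more than 500 kb apart. Of these 96, 66 were KRAB genes.

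**Figure D1:**
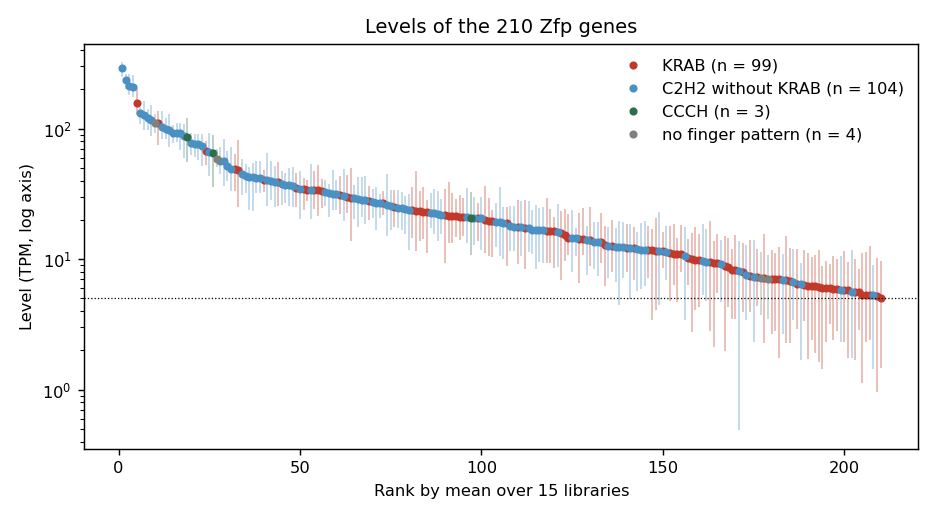
Mean level of each of the 210 *Zfp* genes over 15 libraries (y axis, TPM, log scale) against its rank (x axis), coloured by class, with lines from the lowest to the highest library and a dotted line at 5. KRAB genes fill much of the lower right, and the highest points, led by *Zfp106* at 291, are mostly C2H2 genes without KRAB.

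The 10 most abundant genes took 25.8% of the summed level. *Zfp106*, an RNA-binding protein, was highest at 291 TPM (246 to 321 over the 15 libraries). It was followed by *Zfp207*, a mitotic spindle protein also called BuGZ, at 234 TPM (200 to 260), *Zfp706* at 214 TPM (182 to 260) and *Zfp292* at 210 TPM (175 to 258). These 3 ranges overlap, so their order is within the spread between libraries. *Zfp871* was the highest KRAB gene at 157 TPM, and *Zfp326*, *Zfp638*, *Zfp800*, *Zfp148* and *Zfp451* followed at 132, 128, 120, 117 and 111 TPM. At the lower end, the last 5 genes taken were *Zfp874a*, *Zfp597*, *Zfp146*, *Zfp947* and *Zfp667*, with means from 5.32 down to 5.01 TPM. The next 5, which were not taken, were *Zfp963*, *Zfp235*, *Zfp94*, *Zfp605* and *Zfp868*, with means from 4.99 down to 4.85 TPM.

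Levels of most of the 210 genes varied little between conditions, and no other genes are set beside them here. The ratio of the highest to the lowest condition mean had a median of 1.43, stayed under 1.5 in 122 of the 210 genes and exceeded 2 in 21. Within a condition the median coefficient of variation was 19.8%. The widest ratios were in *Zfp653* (3.4), *Zfp667* (3.05) and *Zfp52* (2.66). Of these, *Zfp667* had the lowest mean of the 210 (5.01 TPM), and *Zfp653* had fewer than 3 reads in at least 1 library.

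The comparison of sgZbtb1 with sgControl asks which genes depend on Zbtb1, a zinc finger partner of Lmo2. In the libraries labelled as sgZbtb1, the KRAB genes *Zfp961* and *Zfp617* fell and *Zfp706* rose, by the limma test with Benjamini-Hochberg adjustment over 11554 genes. These 3 are 1.43% of the 210 genes, against 4.79% of all genes called in this comparison (2.94% lower and 1.85% higher). At an unadjusted limma p under 0.05, 25 of the *Zfp* genes were lower and 5 higher, which is 11.9% and 2.38%, against 10.2% and 7.37% of all genes. Together these are 14.3%, against 17.6% of all genes. The count of lower genes was thus near the background, and that of higher genes below it. In all, 133 of the 210 (63.3%) had a log2 fold change under 0, against 53.3% of all genes. In 32 genes the sgZbtb1 libraries lay below all sgControl libraries and in 8 above them (15.2% and 3.81%, against 12.8% and 10.1% of all genes). The median log2 fold change was −0.12 for the *Zfp* genes and −0.03 for all genes.

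**Figure D2:**
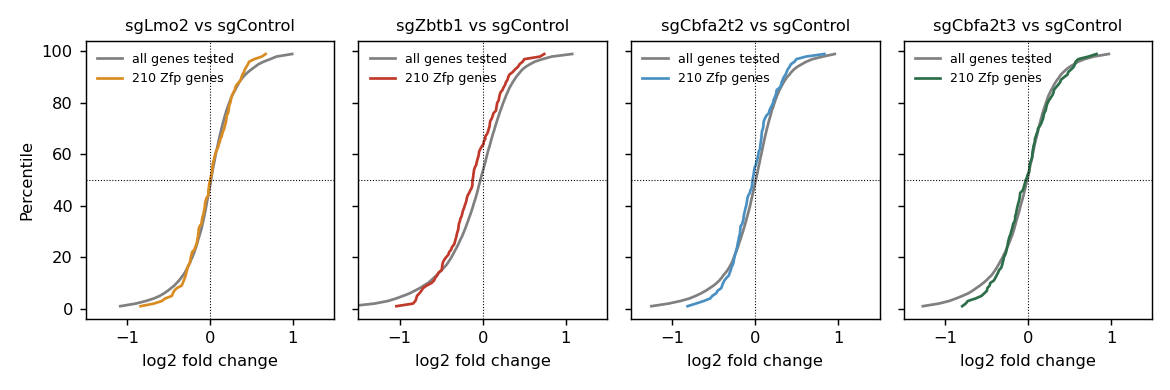
Percentiles 1 to 99 (y axis) of the log2 fold change against sgControl (x axis) for the 210 *Zfp* genes (coloured) and for all 11554 genes tested (grey), in 4 panels, 1 per condition. In the sgZbtb1 panel, where the medians are −0.12 and −0.03, the coloured line runs to the left of the grey line near the middle.

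*Zfp961* was at 22.6, 39.4 and 42.2 TPM in the sgControl libraries and at 19.6, 13.9 and 14.2 TPM in those labelled sgZbtb1. All 3 sgZbtb1 libraries were below all 3 sgControl libraries, but the lowest sgControl library came close to the highest sgZbtb1 library. The log2 fold change was −1.05 (SE 0.25, limma adjusted p 0.00411). A two-sided exact permutation test gave a p of 0.1, the smallest that 3 libraries against 3 allow. In the sgLmo2 libraries *Zfp961* was at 33.9 to 49.9 TPM and in sgCbfa2t2 at 30.9 to 41.5 TPM. In sgCbfa2t3 it was at 18.2 to 26 TPM, where the log2 fold change was −0.67 (limma adjusted p 0.283, not passed).

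*Zfp617* was at 49.4, 41.1 and 56.3 TPM in the sgControl libraries and at 25.1, 26.8 and 30.9 TPM in those labelled sgZbtb1. These groups did not overlap, and the 3 sgZbtb1 libraries were also the lowest of all 15. The log2 fold change was −0.80 (SE 0.19, limma adjusted p 0.00544; exact permutation p 0.1). Without sgControl replicate 3, the adjusted p became 0.0614 for *Zfp617* and 0.0621 for *Zfp961*, so both calls depended on that library, while the log2 fold changes were −0.69 and −0.89.

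**Figure D3:**
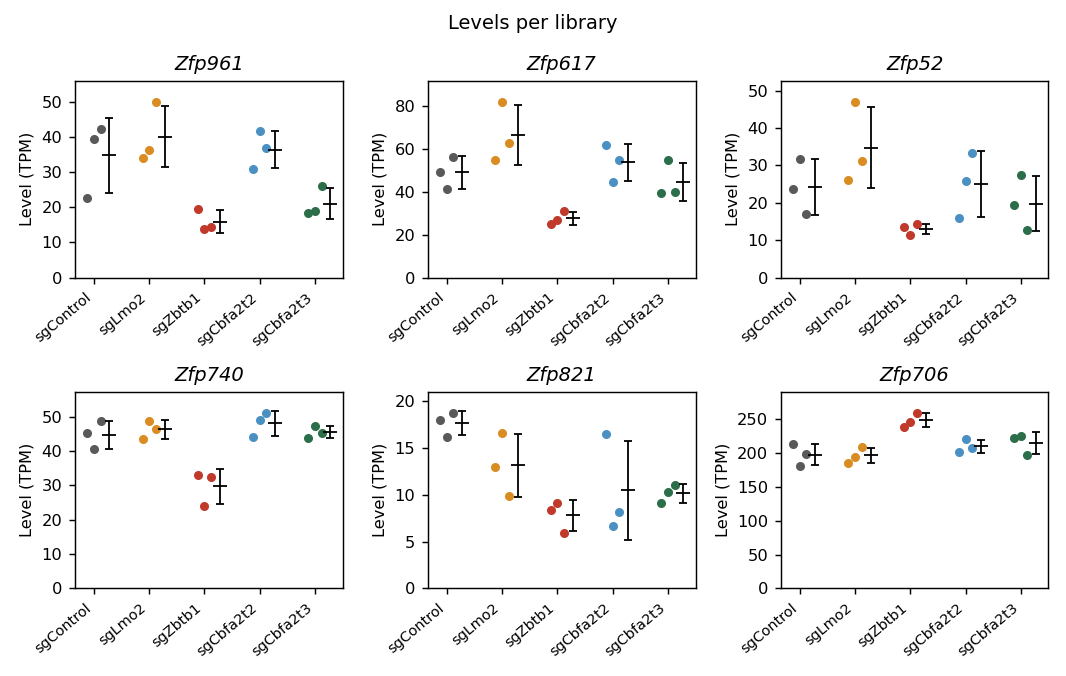
Level in each library (y axis, TPM) of 6 *Zfp* genes in the 5 conditions (x axis), 3 points per condition, with the mean and SD in black beside them. In the sgZbtb1 libraries *Zfp961*, *Zfp617*, *Zfp52*, *Zfp740* and *Zfp821* lie below the sgControl libraries, and *Zfp706* lies above them.

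*Zfp617* and *Zfp961* are neighbours on chromosome 8. On GRCm38 with GENCODE vM21, *Zfp617* lies at chr8:71908635-71934629 and *Zfp961* at chr8:71951038-71993792, both on the plus strand and 16.4 kb apart, with 14 and 11 C2H2 fingers. RefSeq places the start of *Zfp617* inside this span. Neither was the nearest gene of a peak in either list. The nearest Zbtb1 peak was 197 kb from the start of *Zfp617* and 210 kb from that of *Zfp961*, and the nearest Cbfa2t3 peak 69.4 and 97.6 kb away. The 2 genes fell together in sgZbtb1 but differed in sgCbfa2t3. There *Zfp617* had 44.6 ± 8.84 TPM against 48.9 ± 7.61 in sgControl (SD, n = 3). The mean of *Zfp961* in sgCbfa2t3 was 0.605 times that in sgControl, without passing the test. The 250 bases before each start are shown because of the fall in sgZbtb1 alone (RefSeq, GRCm38.p6, chr8:71922575-71922824 and chr8:71950816-71951065, plus strand). Capitals mark the longest run that the 2 have in common:
Zfp617 promoter: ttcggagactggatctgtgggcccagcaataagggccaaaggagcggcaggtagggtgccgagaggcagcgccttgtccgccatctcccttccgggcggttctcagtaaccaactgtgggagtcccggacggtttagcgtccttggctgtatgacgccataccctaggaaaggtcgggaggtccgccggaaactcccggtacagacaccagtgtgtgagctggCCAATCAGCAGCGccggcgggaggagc
Zfp961 promoter: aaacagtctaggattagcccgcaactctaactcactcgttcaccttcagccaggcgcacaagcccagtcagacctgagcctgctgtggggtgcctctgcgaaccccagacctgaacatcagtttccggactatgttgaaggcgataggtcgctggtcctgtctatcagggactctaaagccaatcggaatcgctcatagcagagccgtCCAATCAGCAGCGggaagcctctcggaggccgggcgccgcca
The shared run has 13 bases, begins 27 bases before the start in *Zfp617* and 42 bases before it in *Zfp961*, and opens with CCAAT, the letters of the CCAAT box. On either strand it was found in the promoters of 9 of 27025 genes in the RefSeq table (0.0333%), and among the 173 *Zfp* genes with an entry there in those 2 genes. The run was defined from these 2 promoters, so its presence in them was given in advance and its rarity is no test.

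The shorter CCAATCA, chosen after this run had been seen, stood in 24 of 86 KRAB promoters (27.9%), in 10 of 82 promoters of C2H2 genes without KRAB (12.2%) and in 9.0% of all promoters, on either strand and in windows from 250 bases before to 50 after the start. CCAAT alone, which CCAATCA contains, stood in 58.1%, 43.9% and 41.1% of them. These are counts of letters, and KRAB genes that arose as copies of one another are not independent. 

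The 3′ end of *Zfp961* lies inside *Cyp4f18*, a cytochrome P450 gene on the opposite strand (chr8:71988482-72009626). The strand setting of the counting was not given in the sources used here, so reads of these genes could not be told apart if strand was ignored. *Cyp4f18* was at 12.8, 19.1 and 9.97 TPM in sgControl and at 6.15, 3.82 and 8.84 TPM in sgZbtb1, and its log2 fold change was −1.05 (limma adjusted p 0.0845, not passed). *Zfp617* overlaps *Zfp882* (mean 0.0357 TPM) and the pseudogene *Ccnb2-ps* (0.394 TPM), neither of which covers its 3′ end.

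*Zfp706*, which codes for a small protein with 1 finger, was at 213, 182 and 199 TPM in sgControl and at 239, 247 and 260 TPM in sgZbtb1. The 3 sgZbtb1 libraries were the highest of all 15. The log2 fold change was 0.33 (SE 0.10, limma adjusted p 0.0444; exact permutation p 0.1), and the call was lost without any of 5 of the 6 libraries compared (adjusted p 0.0682 to 0.215). Of the 75-base stretches in the last 400 bases of its transcript, 44.8% also occur in transcripts of other genes, so part of its reads may belong to copies.

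Further genes had large differences without passing the adjusted test. *Zfp740* was at 45.3, 40.5 and 48.7 TPM in sgControl and at 33.0, 23.9 and 32.4 TPM in sgZbtb1, whereas the other 9 libraries had 43.5 to 51.2 TPM. Its log2 fold change was −0.59 (SE 0.19, limma adjusted p 0.0527). *Zfp821* was at 18.0, 16.2 and 18.8 TPM in sgControl and at 8.38, 9.08 and 5.89 TPM in sgZbtb1, a log2 fold change of −1.10 (SE 0.35, limma adjusted p 0.0527). It met the rule for differentially expressed genes (DEGs), whose thresholds were taken from the study. These are more than 10 TPM on average in 1 of the groups and a change of over 1 on the log2 scale in either direction. The rule also asks for p under 0.05 before adjustment. The p used here was that of limma, whereas the study used another test, so the rule as applied is not the study's own. *Zfp961* and *Zfp821* were the 2 *Zfp* genes that met it in sgZbtb1 (0.952% of the 210, against 1.66% of all genes). Their number was 4 without sgControl replicate 1 or sgZbtb1 replicate 1, and 1 without sgControl replicate 2 or sgZbtb1 replicate 3. *Zfp52*, a KRAB gene, was at 23.8, 31.8 and 17 TPM in sgControl and at 13.4, 11.5 and 14.2 TPM in sgZbtb1 (log2 fold change −0.81, SE 0.29, limma adjusted p 0.0861), and at 26 to 46.9 TPM in sgLmo2.

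Summed over the 99 KRAB genes, the level was 1881 to 1911 TPM in the sgControl libraries, 1891 to 2018 in sgLmo2, 1763 to 1872 in sgCbfa2t2, 1786 to 1856 in sgCbfa2t3 and 1667 to 1729 in those labelled sgZbtb1. The sgZbtb1 libraries were thus below every other library, with a mean of 1695 ± 31.3 TPM against 1901 ± 17.2 in sgControl (SD, n = 3 each), a difference of −10.8%. The sgCbfa2t2 and sgCbfa2t3 libraries were also below the sgControl range, with means that differed from that of sgControl by −4.22% and −4.62%, and the sgLmo2 libraries overlapped it. For the 104 C2H2 genes without KRAB, sgControl had 4389 to 4633 TPM and sgZbtb1 4266 to 4391 TPM, which overlap by a small margin. No test was made of these sums, since the genes were chosen with results known. The class medians in sgZbtb1 were alike, at a log2 fold change of −0.12 for KRAB genes (64 of 99 under 0) and −0.11 for the others with C2H2 fingers (65 of 104 under 0).

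**Figure D4:**
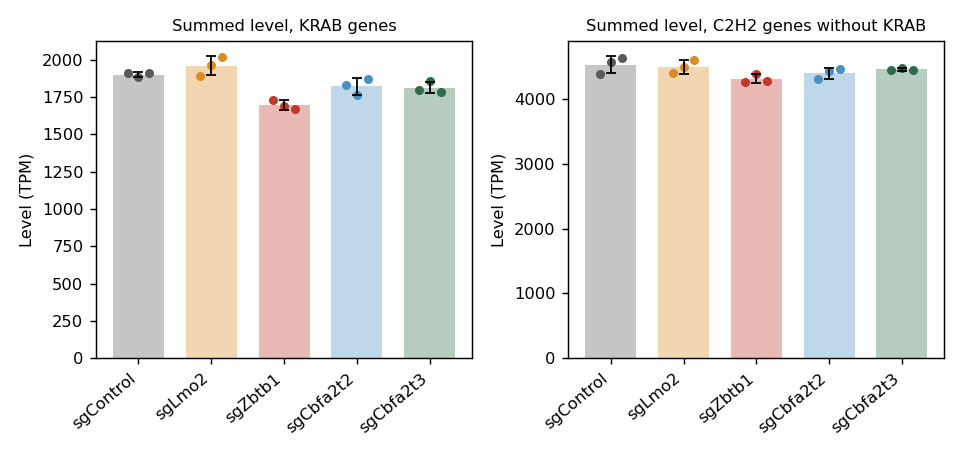
Summed level (y axis, TPM, from 0) of the 99 KRAB genes and of the 104 C2H2 genes without KRAB in the 5 conditions, with a point per library, bars for the mean and lines for the SD. The KRAB sum is lowest in the 3 sgZbtb1 libraries, at 1667 to 1729.

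Among the 17 neighbourhoods, the median log2 fold change in sgZbtb1 ran from −0.51 to 0.30. The lowest was that of *Zfp60*, *Zfp626*, *Zfp607a*, *Zfp780b* and *Zfp36* on chromosome 7, in which all 5 genes were under 0. Next came *Zfp653*, *Zfp809*, *Zfp599* and *Zfp810* on chromosome 9, with a median of −0.45 and all 4 under 0. The highest was a group of 3 on chromosome 17, *Zfp945*, *Zfp40* and *Zfp213*. With 3 to 12 genes each and no gene in them called after adjustment in sgZbtb1 against sgControl, these medians are given as values.

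Marker genes moved in the same comparison. Of the 8 progenitor markers, *Ly6d* fell from 158 ± 26.1 to 29.4 ± 6.75 TPM (SD, n = 3, limma adjusted p 3.19e-20), *Kit* fell from 22.3 ± 0.727 to 10.2 ± 5.18 TPM (limma adjusted p 0.0205), and *Cd34* rose from 258 ± 47.7 to 369 ± 8.29 TPM (limma adjusted p 0.00107). The other 5 did not pass the test. The 7 T-lineage markers summed to 77.2 to 97.3 TPM in sgControl and 40.3 to 56.4 TPM in sgZbtb1, nearly all of it *Lck*, with *Ptcra* and *Cd8a* at 0 throughout. The 7 B-lineage markers summed to 311 to 375 TPM and 212 to 229 TPM, nearly all of it *Ebf1* mRNA, with *Cd79a* at 0. Of the T- and B-lineage markers, *Lck* (limma adjusted p 0.000116), *Ebf1* (6.96e-06) and *Pax5* (0.00420) fell in sgZbtb1. *Pax5* went from 6.80 ± 1.51 to 0.810 ± 0.747 TPM. *Il2ra* and *Vpreb1* did not pass, and the others were below the filter. The 8 myeloid markers summed to 15 to 17 TPM and 8.61 to 22.9 TPM, which overlap. The part of these markers in the changes of *Zfp* genes was not tested, and in bulk libraries fewer cells of a type and less RNA per cell cannot be told apart.

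The comparison of sgLmo2 with sgControl asks which *Zfp* genes depend on the bridging factor itself. None of the 210 had a limma adjusted p under 0.05, against 0.0173% of all genes (2 genes), nor did edgeR or DESeq2 on recovered reads call any. At an unadjusted p under 0.05 there were 8 (3.81%, against 5.65% of all genes), 4 lower and 4 higher (2.48% and 3.18% of all genes). *Zfp653* was at 11, 11.6 and 8.21 TPM in sgControl and at 5.09, 0.488 and 3.83 TPM in sgLmo2, without overlap, and the second of these sgLmo2 values is a single read. Its log2 fold change was −1.66 (SE 0.43, limma adjusted p 0.250, exact permutation p 0.1), and that of *Zfp799* −1.19 (SE 0.45, limma adjusted p 0.838, exact permutation p 0.3). Both met the DEG rule with the unadjusted limma p, and these 2 are 0.952% of the *Zfp* genes against 0.234% of all genes. *Zfp799* was at 15.7, 8.10 and 9.38 TPM in sgControl and at 2.26, 9.78 and 2.74 TPM in sgLmo2, where 1 library overlapped sgControl. The number that met the rule was 1 without sgControl replicate 1 or sgLmo2 replicate 3, and 0 among genes with a mean above 10 TPM, so nothing is read from its share.

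In sgCbfa2t2, none of the 210 passed by limma, edgeR or DESeq2 (0.147% of all genes by limma), and 11 had an unadjusted p under 0.05 (5.24%, against 9.56%), 8 lower and 3 higher (5.12% and 4.44% of all genes). None met the DEG rule (0.502% of all genes), and 1 did without sgControl replicate 1 or sgCbfa2t2 replicate 1. Without sgControl replicate 3, 7 had an unadjusted p under 0.05. The 2 smallest p were those of *Zfp62* and *Zfp638*. *Zfp62* was at 33.7, 64.8 and 54.5 TPM in sgControl and at 31.4, 31.0 and 25.6 TPM in sgCbfa2t2, and its log2 fold change was −0.73 (SE 0.20, limma adjusted p 0.149). Without sgControl replicate 1 it would be called, with a log2 fold change of −1.0 and an adjusted p of 0.0176. *Zfp638*, a nuclear protein that silences unintegrated retroviral DNA, had 144 ± 15.9 TPM in sgControl and 110 ± 19.1 in sgCbfa2t2 (SD, n = 3), and 17.8% of its last 75-base stretches also occur in other transcripts.

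In sgCbfa2t3, none of the 210 passed by limma, edgeR or DESeq2 (0.537% of all genes by limma), and 18 had an unadjusted p under 0.05 (8.57%, against 10.6%), 10 lower and 8 higher (6.27% and 4.32% of all genes). None met the DEG rule (0.658% of all genes), and 1 did without sgCbfa2t3 replicate 2. *Zfp593*, whose yeast relative acts in ribosome assembly, was at 44.7, 59.0 and 45.7 TPM in sgControl and at 59.0, 83.9 and 69.8 TPM in sgCbfa2t3 (log2 fold change 0.50, SE 0.17, limma adjusted p 0.237). *Zfp428* was at 14.5, 11.6 and 16.4 TPM in sgControl and at 27.9, 26.8 and 22.7 TPM in sgCbfa2t3, without overlap (log2 fold change 0.83, SE 0.30, limma adjusted p 0.246). Of the 6 erythroid markers, the globin gene *Hbb-bt* alone was above the filter, and it rose from 130 ± 17.3 TPM in sgControl to 217 ± 52.0 TPM in sgCbfa2t3 (SD, n = 3, limma adjusted p 0.00303). *Hbb-bs* and *Hba-a1* were at 0. The progenitor marker *Ly6d* fell to 57.9 ± 8.52 TPM in sgCbfa2t3 (limma adjusted p 6.82e-10) and to 97.1 ± 3.54 TPM in sgCbfa2t2 (limma adjusted p 0.0186). The part of *Hbb-bt* and *Ly6d* in the values of *Zfp* genes was not tested.

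The direct comparison of sgZbtb1 with sgCbfa2t3 asks which *Zfp* genes differ in level between these conditions. A gene without a call in it need not respond alike in both. None of the *Zfp* genes passed by limma, edgeR or DESeq2 (1.13% of all genes by limma), and 12 had an unadjusted p under 0.05 (5.71%, against 10.0%), 9 lower and 3 higher in sgZbtb1 (5.45% and 4.54% of all genes). This number rested on single libraries, with 6 without sgCbfa2t3 replicate 2 and 20 without sgCbfa2t3 replicate 3. *Zfp617* was nearest, with 27.6 ± 2.99 TPM in sgZbtb1 and 44.6 ± 8.84 in sgCbfa2t3 (SD, n = 3, log2 fold change −0.66, limma adjusted p 0.0704), then *Zfp740*, with 29.8 ± 5.08 and 45.6 ± 1.72 TPM (log2 fold change −0.61). A test of any difference among the 5 conditions (the limma F test) called *Zfp617*, *Zfp961*, *Zfp52* and *Zfp653*, 1.90% of the 210 against 4.54% of all genes.

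The CCCH genes, which code for mRNA decay factors, were all expressed. *Zfp36l2* had the highest level at 86.9 TPM, *Zfp36l1* was at 65.4 TPM and *Zfp36*, which codes for tristetraprolin, at 20.8 TPM. *Zfp36l1* was at 62.1, 78.1 and 68.0 TPM in sgControl and at 55.9, 58.3 and 35.8 TPM in sgZbtb1. These did not overlap, but the log2 fold change of −0.49 (SE 0.19) did not pass the test (limma adjusted p 0.117). *Zfp36* was at 24.4, 20.8 and 32.8 TPM in sgControl and at 17.9, 21 and 14.7 TPM in sgZbtb1, with 1 library overlapping. *Zfp36l2* was at 112, 72.3 and 85.0 TPM and at 120, 101 and 80.0 TPM, which overlap. Summed, the 3 genes had 171 to 199 TPM in sgControl and 131 to 194 TPM in sgZbtb1.

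Among genes with a known role, *Zfp217*, a partner of the CoREST corepressor, had a log2 fold change of −0.40 in sgZbtb1 (limma adjusted p 0.122). *Zfp148*, which binds GC-rich promoters, had log2 fold changes of −0.36 in both sgCbfa2t2 and sgCbfa2t3 (limma adjusted p 0.320 and 0.273), which share their sgControl libraries. *Zfp281*, a regulator of pluripotent and progenitor cells, *Zfp410*, an activator of *Chd4*, *Zfp143*, which binds promoters and chromatin loop anchors, *Zfp335*, which is needed for T-cell maturation, and *Zfp384* were at 36.3, 37.3, 19.3, 18.8 and 11.3 TPM. *Zfp91*, *Zfp131* and *Zfp318*, the last needed for IgD expression in B cells, were at 97.2, 92.6 and 42.0 TPM. *Zfp809*, a KRAB protein that silences endogenous retroviruses, was at 19.7 TPM, and *Zfp110*, also a KRAB gene, at 13.4 TPM. None of these had an adjusted p under 0.05 in any comparison with sgControl. *Zfp521*, *Zfp423* and *Zfp57* were listed at 0 in every library and are not among the 210.

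Of the cofactors through which KRAB proteins act, 19 of 20 measured genes could be tested. *Trim28* rose in the libraries labelled sgZbtb1, from 573, 603 and 583 TPM in sgControl to 689, 655 and 770 TPM (log2 fold change 0.26, limma adjusted p 0.0309), and none of the others passed in any comparison. In the other conditions it was at 614 to 681 TPM, above the sgControl libraries, and did not pass. The most abundant were *Chd4*, a remodelling ATPase, at 1100 TPM and *Cbx5*, which codes for HP1α, at 719 TPM, and *Setdb1* was at 36.9 TPM. Of 20 genes of the CCR4-NOT and decay machinery, *Cnot1*, the scaffold of the deadenylase, fell in sgZbtb1 (170 ± 23.4 to 126 ± 28.2 TPM, limma adjusted p 0.0441). Its libraries overlap by a small margin, at 148 to 194 TPM in sgControl and 94.8 to 149 TPM in sgZbtb1. *Pabpc1*, the poly(A)-binding protein, rose in sgZbtb1 (4979 ± 161 to 5742 ± 187 TPM, limma adjusted p 0.0450). Of all genes, 4.79% were called in this comparison. *Xrn1*, the 5′ exonuclease, fell in sgCbfa2t3, from 110, 99.6 and 101 TPM in sgControl to 70.8, 74.2 and 61.5 TPM (log2 fold change −0.59, limma adjusted p 0.0241).

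ChIP-seq asks where Zbtb1 and Cbfa2t3 bind in the same cells. The deposited lists hold peaks found in both replicates, with a normalized score of at least 15 and no separate values per replicate, so no spread can be given for a score. Zbtb1 had a peak nearest to 58 of the 210 *Zfp* genes (27.6%), against 31.4% of 8712 other protein-coding genes with a mean of at least 5 TPM. Cbfa2t3 had one nearest to 32 (15.2%), against 23.4%. Peaks within 1 kb of the start were nearest to 38 genes for Zbtb1 (18.1%, against 22.0%) and 13 for Cbfa2t3 (6.19%, against 7.46%). By class, a Zbtb1 peak was listed for 16 of 99 KRAB genes (16.2%) and 36 of 104 C2H2 genes without KRAB (34.6%), and a Cbfa2t3 peak for 11 (11.1%) and 18 (17.3%). Nearest-gene assignment favours genes with much sequence to themselves, and its part in these shares was not tested.

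The highest Zbtb1 peak among them was at the promoter of *Zfp609*, a partner of the cohesin loader Nipbl, with a score of 198 (chr9:65827468-65827838, 89 bp before the start). Then followed the peak before *Zfp36* (165), the promoter of *Zfp422*, also called Krox-26 (128), and 2 peaks at *Zfp652*, a corepressor partner of Cbfa2t3 (114 at −0.527 kb from the start, 103 in exon 1). Of the 73 Zbtb1 peaks, 24 were annotated to promoters (32.9%, against 29.8% of all Zbtb1 peaks), 39 lay within 1 kb of a start and 24 beyond 10 kb. *Zfp706* had 3 Zbtb1 peaks, 1 at its promoter (29.1) and 2 nearly 70 kb away in intergenic sequence (74.9 and 61.0). The promoter of *Zfp821* had a score of 27.7. At *Zfp653* a peak of 43.3 lay 281 bp from the start but was assigned to the antisense gene *Gm16845*.

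**Figure D5:**
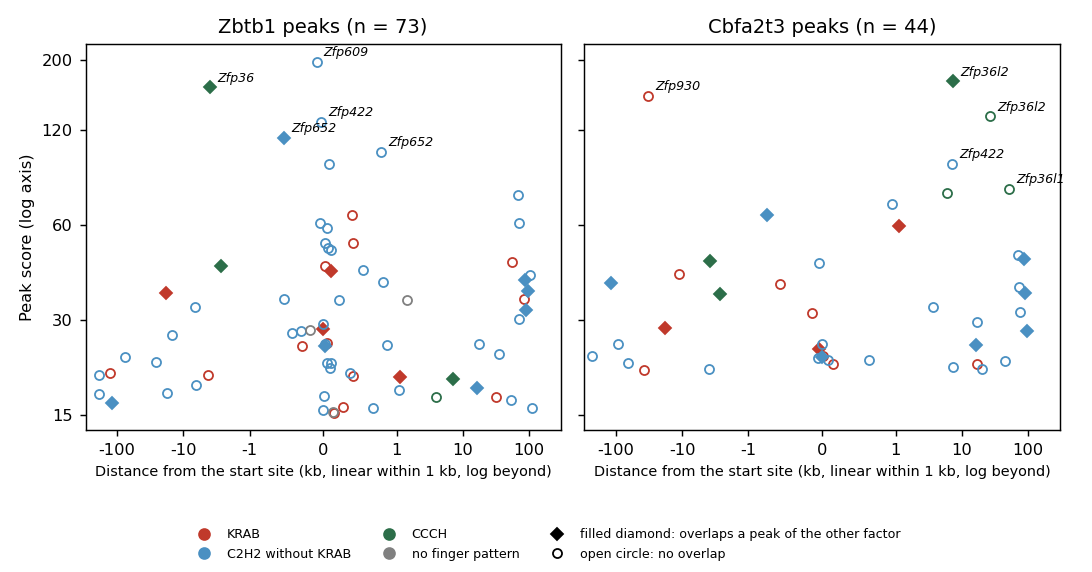
Score (y axis, log scale) of each of the 73 Zbtb1 and 44 Cbfa2t3 peaks whose nearest gene is a *Zfp* gene, against its distance from the start site (x axis, kb, linear within 1 kb and log beyond), coloured by class, with filled diamonds for peaks that overlap one of the other factor. Zbtb1 peaks crowd around 0 with *Zfp609* on top at 198, the highest Cbfa2t3 peaks lie away from starts, and the green points mark the CCCH genes.

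For Cbfa2t3, the highest peaks were distal. A peak 7.26 kb after the start of *Zfp36l2*, in intergenic sequence, had a score of 172 (chr17:84180497-84180875), and a second one 26.5 kb away had 133. Between them in rank stood a peak 32.5 kb before the KRAB gene *Zfp930* (155), and below them peaks at *Zfp422* (94.1, 7.21 kb) and *Zfp36l1* (78.3, 52.0 kb). Of the 44 peaks, 10 were at promoters (22.7%, against 12.7% of all Cbfa2t3 peaks), 22 were beyond 10 kb, and 6 lay in LTR elements of endogenous retroviruses (13.6%, against 7.08%). Of the Zbtb1 peaks 3 did so (4.11%, against 3.61%).

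Peaks of both factors overlapped by at least 1 bp at 14 of the 73 Zbtb1 peaks of *Zfp* genes (19.2%, against 25.2% of all Zbtb1 peaks), and 13 of the 44 Cbfa2t3 peaks overlapped one of Zbtb1 (29.5%, against 24.4%). The 14 belonged to 12 genes: *Zfp36*, *Zfp652*, *Zfp36l1*, *Zfp942*, *Zfp608*, *Zfp704*, *Zfp316*, *Zfp944*, *Zfp24*, *Zfp1*, *Zfp36l2* and *Zfp507*. All 3 CCCH genes were among them at an overlap of 1 bp, but not by the stricter rules of the closing section. At *Zfp36*, at −3.98 kb from the start, the Zbtb1 score was 165 and the Cbfa2t3 score 46.0. At *Zfp36l1*, at −2.67 kb, they were 44.5 and 36.3. At *Zfp36l2* the order was the other way round, with 19.5 for Zbtb1 and 172 for Cbfa2t3.

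The 200 bases at the centre of these 3 Zbtb1 peaks are given because both factors were listed there at every CCCH gene, with those of the highest Zbtb1 peak, at *Zfp609* (GRCm38.p6, plus strand; chr7:28383108-28383307, chr12:80115579-80115778, chr17:84180813-84181012 and chr9:65827554-65827753). Capitals mark TGTGGT, the Runx core, TGGTGGT, a core like that of the Zbtb7c motif, and CAGNTG, an E-box, each on either strand:
Zfp36 upstream peak: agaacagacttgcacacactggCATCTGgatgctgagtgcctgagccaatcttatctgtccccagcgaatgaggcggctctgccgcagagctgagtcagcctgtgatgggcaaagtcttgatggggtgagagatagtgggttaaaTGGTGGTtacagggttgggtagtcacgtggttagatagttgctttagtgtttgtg
Zfp36l1 upstream peak: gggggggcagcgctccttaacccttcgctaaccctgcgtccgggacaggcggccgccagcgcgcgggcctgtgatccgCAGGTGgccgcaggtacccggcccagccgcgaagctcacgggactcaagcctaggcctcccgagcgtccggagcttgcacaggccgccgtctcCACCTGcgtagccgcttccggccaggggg
Zfp36l2 downstream peak: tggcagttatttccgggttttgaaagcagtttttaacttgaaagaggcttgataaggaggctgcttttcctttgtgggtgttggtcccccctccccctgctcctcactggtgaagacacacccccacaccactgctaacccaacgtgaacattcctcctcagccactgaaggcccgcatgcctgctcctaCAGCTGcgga
Zfp609 promoter peak: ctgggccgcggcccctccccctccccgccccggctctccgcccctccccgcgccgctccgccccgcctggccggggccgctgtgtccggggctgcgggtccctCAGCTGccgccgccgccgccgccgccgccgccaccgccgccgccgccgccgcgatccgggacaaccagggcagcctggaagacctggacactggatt
The *Zfp36* window held 1 TGGTGGT and 1 E-box, that of *Zfp36l1* 2 E-boxes, and those of *Zfp36l2* and *Zfp609* 1 E-box each. None of the 4 held a Runx core.

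The chromosome 17 neighbourhood of 10 KRAB genes from *Zfp160* to *Zfp944* (chr17:21008903-22361400) carried Cbfa2t3 peaks nearest to 5 of its genes: *Zfp53* (41.9, in an LTR element 11.2 kb before the start), *Zfp52* (39.1), *Zfp983* (31.6), *Zfp943* (24.3) and *Zfp51* (21.7), the last 4 within 1 kb of the start. Outside it, Cbfa2t3 peaks fell on 1 gene each in the neighbourhoods of *Zfp36* and of *Zfp84* on chromosome 7, on 2 in that of *Zfp397*, and on none of the genes of the other 13 neighbourhoods. Zbtb1 peaks were listed for 3 of the 10. The centres of the peaks at *Zfp52* and *Zfp983* are shown as those upstream of a start in this neighbourhood with the highest scores at promoters (GRCm38.p6, plus strand, chr17:21534864-21535063 and chr17:21650369-21650568), with capitals as above:
Zfp52 upstream peak: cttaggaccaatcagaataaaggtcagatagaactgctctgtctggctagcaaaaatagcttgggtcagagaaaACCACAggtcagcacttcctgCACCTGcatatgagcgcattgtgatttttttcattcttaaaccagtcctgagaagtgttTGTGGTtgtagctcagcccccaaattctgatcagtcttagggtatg
Zfp983 upstream peak: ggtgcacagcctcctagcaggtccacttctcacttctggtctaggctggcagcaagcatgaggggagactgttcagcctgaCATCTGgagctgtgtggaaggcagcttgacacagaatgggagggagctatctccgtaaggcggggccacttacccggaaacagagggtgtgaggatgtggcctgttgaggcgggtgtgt
The *Zfp52* window, 576 bp before the start, held 2 Runx cores and 1 E-box between them, and the *Zfp983* window, 143 bp before the start, 1 E-box.

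In 200 bp windows at the centres of all peaks of *Zfp* genes, the E-box CAGNTG stood in 86.4% of Cbfa2t3 peaks (38 of 44, against 83.2% of all Cbfa2t3 peaks) and 39.7% of Zbtb1 peaks (29 of 73, against 39.3%). TGTGGT stood in 29.5% and 32.9% of them, against 43.7% and 41.3% of all peaks, and TGGTGGT in 6.82% and 13.7%, against 7.02% and 15.8%. The letters of TGTGGT and TGGTGGT can overlap. In promoters of *Zfp* genes, without regard to peaks, TGTGGT stood in 16.8% of 173, against 18.9% of all promoters.

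Of the 58 *Zfp* genes with a Zbtb1 peak, 10 were lower and 3 higher in sgZbtb1 at an unadjusted limma p under 0.05 (17.2% and 5.17%), and of the 152 without, 15 and 2 (9.87% and 1.32%). Genes with a peak had a higher level, with a median of 30.6 TPM against 17 TPM, and the part of the level in these shares was not tested. Among other protein-coding genes the shares were 13.1% and 9.80% with a peak and 8.38% and 8.43% without. The median log2 fold changes of *Zfp* genes were −0.14 with and −0.11 without a peak. For Cbfa2t3 in sgCbfa2t3, none of the 32 genes with a peak was lower at that p and 2 were higher, and 10 and 6 of the 178 without (5.62% and 3.37%). Among other protein-coding genes, 10.0% were lower and 4.26% higher with a Cbfa2t3 peak, and 4.74% and 5.16% without. Of the genes called in sgZbtb1, *Zfp706* thus had listed peaks, and *Zfp617* and *Zfp961* had none. Of those called by the F test alone, *Zfp52* had a Cbfa2t3 peak (39.1). *Zfp653* was the nearest gene of no peak, although the Zbtb1 peak assigned to *Gm16845* lay 281 bp from its start.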

How the data were processed

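QuantSeq 3′ mRNA libraries of 15 samples and ChIP-seq peak lists of Zbtb1 and Cbfa2t3 were used. The authors trimmed the reads with fastp and mapped them with STAR (build mm10). The deposited values per Ensembl gene are named TPM and are CPM in unit, with no division by gene length. Whole reads were recovered from 99.98% to 100% of values per library (within 0.001 TPM). ChIP reads were mapped with Bowtie 1.1.1, and the authors deposited HOMER peaks of both replicates with a normalized score, and as other columns the nearest gene and annotation. Columns with the authors' means, SDs, tests and fold changes were not used.

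The members and gene lists were chosen with earlier results of these data known. Genes with a mean above 1 TPM (11554, all 210 members) were fitted together with limma 3.58.1 (R 4.3.3, trend) on log2(TPM + 1), which understates changes of low genes. Exact permutation tests were two-sided. Alternatives are in the closing section, and included edgeR 4.0.16 and DESeq2 1.42.0 on the recovered reads. edgeR called 2, 569, 17 and 58 genes in sgLmo2, sgZbtb1, sgCbfa2t2 and sgCbfa2t3, and limma 2, 554, 17 and 62. In simulated data (11424 genes, sgZbtb1 against sgControl) limma called 67% of genes changed by 1 and 93% of those changed by 2 on the log2 scale. A count of 3 reads was worth 1.43 to 1.76 TPM, a floor for counting error only.

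Classes came from coding sequences of GENCODE vM21 translated by a script: a C2H2 or CCCH finger pattern, and a KRAB box where at least 16 residues matched the consensus of these proteins. Overlaps of at least 1 bp were counted with bedtools 2.31.1. Genes named were those with an adjusted p under 0.05 or that met the DEG rule, otherwise the 2 smallest p per comparison, the 10 highest, those beside the threshold, the 5 highest peaks, the genes with overlapping peaks and a list of known roles. *Zfp36l1*, *Zfp740* and *Zfp52* in sgZbtb1, the neighbourhoods and the motif CCAATCA were chosen after their values were seen. Of 210 members, 173 had a promoter in the RefSeq table (GRCm38.p6), and all peaks on named chromosomes lay within its lengths. Classes were planned from RefSeq proteins, which were not used here. The replicate number was not a block in the main fit, and correlations of deviations between same-numbered libraries ran from −0.01 to 0.07. The study gives the depth of the ChIP libraries only as an approximate figure for all samples, and the peak lists hold none.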

Additional observations from a re-analysis of the deposited data

How the results depend on the processing

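Of the recomputed values of adjusted calls, medians and peak counts, 143 stayed within 1.5 times the main count or 1 SD (0.0231) of the main median, and 20 moved further. This is a tolerance of size, and medians near 0 could change sign within it, as that of sgLmo2 did with size factors (−0.0125) or edgeR (−0.0133). Of the values for single genes and the counts by the DEG rule or unadjusted p, 309 kept their side of the threshold or this tolerance, 18 counts moved by more than 1.5 times, 8 lost a call and 4 gained one. The moved counts ranged from 0 to 2 (sgLmo2), 1 to 4 (sgZbtb1) and 0 to 1 (the others) by the DEG rule, and from 5 to 11 (sgLmo2), 7 to 14 (sgCbfa2t2) and 6 to 20 (sgZbtb1 against sgCbfa2t3) by unadjusted p. The *Zfp* genes called in sgZbtb1 were 6 of 158 with a mean above 10 TPM as the filter (540 of 8157 genes in all), and 0 to 4 when 1 of the 6 libraries was left out (306 to 459 of all 11554 genes), with 0 without sgControl replicate 3 (330 of all genes). The call of *Zfp706* was also lost with no filter (adjusted p 0.0620), and *Zfp821* was called with a mean above 10 TPM (adjusted p 0.0430) and with the 6 libraries alone (0.0406). With the replicate number as a block, 6 of the 210 were called in sgZbtb1 (709 of all 11554 genes, against 554 without the block) and 5 by the F test (718 genes, against 525), with *Zfp821* at an adjusted p of 0.0437, and no *Zfp* gene was called in the other comparisons. Over all genes the block also raised the calls from 2 to 14 in sgLmo2, 17 to 36 in sgCbfa2t2, 62 to 93 in sgCbfa2t3 and 130 to 166 between sgZbtb1 and sgCbfa2t3. Same-numbered libraries correlated by only 0.03 on average over all genes. This mean does not show whether the numbers mark a batch that bears on some genes, which was not tested. In sgCbfa2t2, leaving out libraries gave 0 to 1 calls (2 to 26 of all genes). The F test called 2 *Zfp* genes with no filter (253 of 18602 in all) and 2 to 5 when a library was left out (338 to 583 in all), with 2 without sgLmo2 replicate 2 (432 in all).

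The median log2 fold change in sgZbtb1 stayed at −0.136 to −0.101 under every alternative run. Those nearer 0 moved by more than 1 SD: with DESeq2 to −0.0195 in sgLmo2 and −0.0569 in sgCbfa2t2, and without single libraries from −0.0313 to 0.0198 in sgLmo2, from −0.0593 to −0.0136 in sgCbfa2t2 and from −0.0567 to 0.0085 in sgCbfa2t3. The cause was not tested.

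With a score of at least 30, Zbtb1 peaks were listed for 27 *Zfp* genes (12.9%, against 17% of other genes) and Cbfa2t3 peaks for 16 (7.62%, against 14.3%). Within 1 kb of the start these were 38 and 13, and within 10 kb 46 (21.9%, against 26%) and 20 (9.52%, against 14.3%). Shared peaks numbered 8 with centres within 100 bp and 5 with a score of at least 30 in both lists. Of the CCCH genes, *Zfp36l1* met both rules, *Zfp36* that of the score alone and *Zfp36l2* neither. Counts under 10 reads limit genes near 5 TPM, and 3 libraries against 3 cannot give an exact p under 0.1.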

Other observations

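Of the 30 *Zfp* genes with an unadjusted limma p under 0.05 in sgZbtb1, 13 were among the 99 KRAB genes and 15 among the 104 C2H2 genes without KRAB, both below the 17.6% of all genes. The other two were the CCCH gene *Zfp36l1* and *Zfp839*, in which no finger pattern was found.

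Sequence shared with other genes concerned few of the 210. In 9 of them at least 1 stretch of 75 bases in the last 400 of the transcript also occurs in a transcript of another gene. The share was 69.9% in the neighbours *Zfp955a* and *Zfp955b*, which share it with each other, 60.4% in *Zfp932* and 46.6% in *Zfp414*.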
